A study of Homo sapiens with 8 samples.

Results

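The genes described here encode splicing factors and heterogeneous nuclear ribonucleoproteins (hnRNPs). They were chosen by name alone, as the genes whose symbols start with SRSF, HNRNP, SNRP, SF3A, SF3B or PRPF followed by a number or letter, together with U2AF1 and U2AF2. Of 251 rows of the count table with such names, 178 numbered pseudogene rows were left out, as were HNRNPA2B1, HNRNPC and SNRPN, which leaves 70 of the 56303 genes of the table. By role these are 12 SR proteins, 23 hnRNP proteins, 11 proteins of the small nuclear ribonucleoproteins (snRNPs), 11 subunits of SF3A, SF3B and U2AF, and 13 PRPF proteins.

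The data came from MeRIP-seq of SK-N-BE(2), an established human neuroblastoma cell line, in which RNA pieces carrying N6-methyladenosine (m6A) are pulled down with an antibody. The control cells carried a control shRNA (sh-NC), and the knockdown cells an shRNA (shMETTL14) against METTL14, a subunit of the enzyme that writes m6A, delivered by lentivirus and kept under puromycin selection in both arms. Each arm had 2 samples, called cultures here, and each culture gave an immunoprecipitated library (IP) and an input library of the same fragmented mRNA, 8 libraries in all. The labels number the cultures 1 and 2 and do not say whether they were grown separately, or whether they are repeats of 1 shRNA or the pair of METTL14 shRNAs that the study used, so p-values measure only the spread between these samples.

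Splicing removes introns in the spliceosome, whose U1 and U2 snRNPs first mark the ends of an intron. SR proteins mostly bind exons and recruit the spliceosome, whereas hnRNP proteins coat the new transcript and often oppose it. Many SR and hnRNP genes tune their own mRNA through alternative exons that lead to decay, and several of these proteins have been studied in connection with m6A in nuclear RNA.

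Libraries held 32027379 to 47205265 counts. METTL14 itself was at 49.2 ± 0.55 CPM (read counts brought to a common library size by TMM factors, mean ± SD over the 2 cultures) in the sh-NC inputs, against 14.2 ± 0.68 CPM in the shMETTL14 inputs, a log2 fold change of -1.79 ± 0.066 (SE, edgeR quasi-likelihood test, adjusted p = 1.28e-15). All 11 adrenergic neuroblastoma markers reached 1 CPM, DBH at a median of 3.15 CPM only, and their summed level was 2374 to 2392 CPM in the sh-NC inputs, against 3138 to 3163 CPM in the shMETTL14 inputs. All 5 fibroblast markers also reached 1 CPM, with sums of 138 to 140.0 CPM in sh-NC and 144.6 to 148.4 CPM in shMETTL14, against 0 of 4 leukocyte, 1 of 4 endothelial and 1 of 4 epithelial markers. Over the 4 inputs LUM ran from 23.18 to 42.02 CPM, DCN from 15.69 to 41.1 and COL1A1 from 52.12 to 88.46. PDGFRA ran from 8.304 to 9.735 CPM and COL1A2 from 1.455 to 2.265, so near-constant sums do not mean constant markers. The part of these marker differences in the results was not tested. In such bulk samples, fewer cells of a type and less RNA per cell cannot be told apart.

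The splicing genes were highly expressed. Their median input level in sh-NC was 172.8 CPM, against 8.25 CPM over all genes tested, and the 70 genes together took 1.94% to 1.98% of the counts of each input library and 1.97% to 2.01% of each IP library. Of the 70, 66 had at least 1000 counts over the 8 libraries. The others were HNRNPCL1, HNRNPCL2, HNRNPCL3 and HNRNPCL4, near-copies of HNRNPC, of which HNRNPCL3 was too low to be tested. Between genes, levels are set side by side only per kilobase of exon (CPM per kb). HNRNPA1, an hnRNP that shuttles between nucleus and cytoplasm, was highest in sh-NC at 375.3 CPM per kb, followed by HNRNPAB at 206.5 and HNRNPF at 142.0. Within the other groups the highest were PRPF6, a tri-snRNP protein, at 135.7 CPM per kb, SF3B2, a U2 snRNP subunit, at 127.1, SNRPB, the Sm ring protein B, at 102.1 and SRSF1, the prototype SR protein, at 91.2. At the low end stood PRPF40B at 4.28 CPM per kb, SRSF12 at 5.29, U2AF1, the small subunit that reads the end of the intron, at 12.2, and SNRPB2 at 12.9, besides HNRNPCL4 at 0.126. The length joins all exons annotated for a gene, so a long gene model lowers the value per kb. U2AF1 has 11112 such bases, the longest merged exon 7631, and its mean in the sh-NC inputs was 135.4 CPM. PRPF40B has 9444, of which 48.7% are shared with other genes. The 2 cultures of an arm lay close together, with a median SD of 1.47% of the mean in the sh-NC inputs, against 1.78% in the shMETTL14 inputs over the 66 genes.

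Short stretches of the promoters of a few of these genes are shown to place the genes that the results below turn on. RefSeq promoter windows of GRCh38.p14, 250 bases before to 50 bases after a gene's start, were at hand for 61 of the genes in 81 windows. The letters searched on both strands were CGGAAG, the core that ETS family factors bind, and CACGTG, the E-box that MYC family factors bind. CGGAAG stood in 50.6% of the 81 windows, against 19.5% of all 35116 windows and 27.4% of the windows of genes tested, and CACGTG stood in 12.3%, against 7.26% and 9.1%. They were picked for display from 11 motifs after the shares had been seen, and TTCCGG and ACTTCCG among the 11 overlap CGGAAG. A match is a run of letters and no evidence of binding. Each line gives 30 bases along the gene's strand with the motif, or its reverse complement CTTCCG, in capitals, for the gene with the largest fall in input RNA (HNRNPD), a pair of related genes that rose (HNRNPH3 and HNRNPH1), and the genes with the lowest (SNRPB) and highest (SF3B5) IP over input.
HNRNPD E-box: gcgctctcgcgtCACGTGaccgggacgcgc
HNRNPD ETS core: tagctcacgacaCTTCCGgttccttttaaa
HNRNPH3 E-box: tgccggtcgaacCACGTGgggccctttccg
HNRNPH1 ETS core: cgagggggagagCGGAAGtgagctccaggc
SNRPB ETS core: agtgagctggacCGGAAGtaggtttctacc
SF3B5 ETS core: gcggacctggagCTTCCGcgcggtggcttc
The windows lie at chr4:82374001-82374030 and chr4:82374157-82374186 on the minus strand for HNRNPD, at chr10:68331631-68331660 on the plus strand for HNRNPH3, at chr5:179634798-179634827 on the minus strand for HNRNPH1, at chr20:2470812-2470841 on the minus strand for SNRPB and at chr6:144095574-144095603 on the minus strand for SF3B5. Their motifs start 27, 183, 50, 31, 40 and 18 bases before the RefSeq gene start, in the order of the lines. Of the 35 tested genes with CGGAAG in a window, 8 rose and 4 fell in the input comparison below. Of the 26 without it 5 rose and 6 fell. The median log2 fold change was -0.010 with it and 0.043 without it. Over all genes tested 11.7% rose and 12.3% fell, and these were not split by motif. A link between motif and change was not tested.

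The first comparison asked whether the mRNA of the splicing genes differed between the inputs of the 2 arms. Of the 69 genes tested, 14 rose and 11 fell in shMETTL14, and 44 did not pass the adjusted p threshold of 0.05 (edgeR). That is 20.3% and 15.9% of the tested genes, beside 11.7% and 12.3% of all 22245 genes tested. The median log2 fold change was 0.0050, against 0.0024 over all genes, so rises and falls were about balanced. The differences were small. Those that passed lay between 0.092 and 0.297 in absolute log2 fold change, with a median of 0.137, against a median of 0.318 over all calls of that comparison. The splicing genes had a median sh-NC input level of 172.8 CPM, against 8.25 CPM over all genes tested. Smaller changes can pass at higher levels, and the shares and medians of calls were not compared at like levels. No splicing gene passed with an absolute log2 fold change of 0.5 or more. The count depended on the filter and on the cultures. With no filter beyond 1 read, 8 of the 25 calls held, those of HNRNPD, HNRNPDL, HNRNPH1, HNRNPH2, HNRNPH3, SRSF1, SRSF7 and SRSF8, and the rest of the 25 were lost. Of the 25 calls, 10 held without shMETTL14 culture 1, and 4 held without shMETTL14 culture 2, namely HNRNPD, HNRNPH2, HNRNPH3 and SRSF11. Without sh-NC culture 1, 9 rises remained. All 25 kept their direction in each of these fits. They were picked from the same libraries and their arms did not overlap, so a turn was hardly possible. The inputs of the 2 arms did not overlap for 46 of the 69 genes, beside 58.4% of all genes tested. Lack of overlap, given for single genes below, is therefore common and does not by itself set a gene apart.

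**Figure D1:**
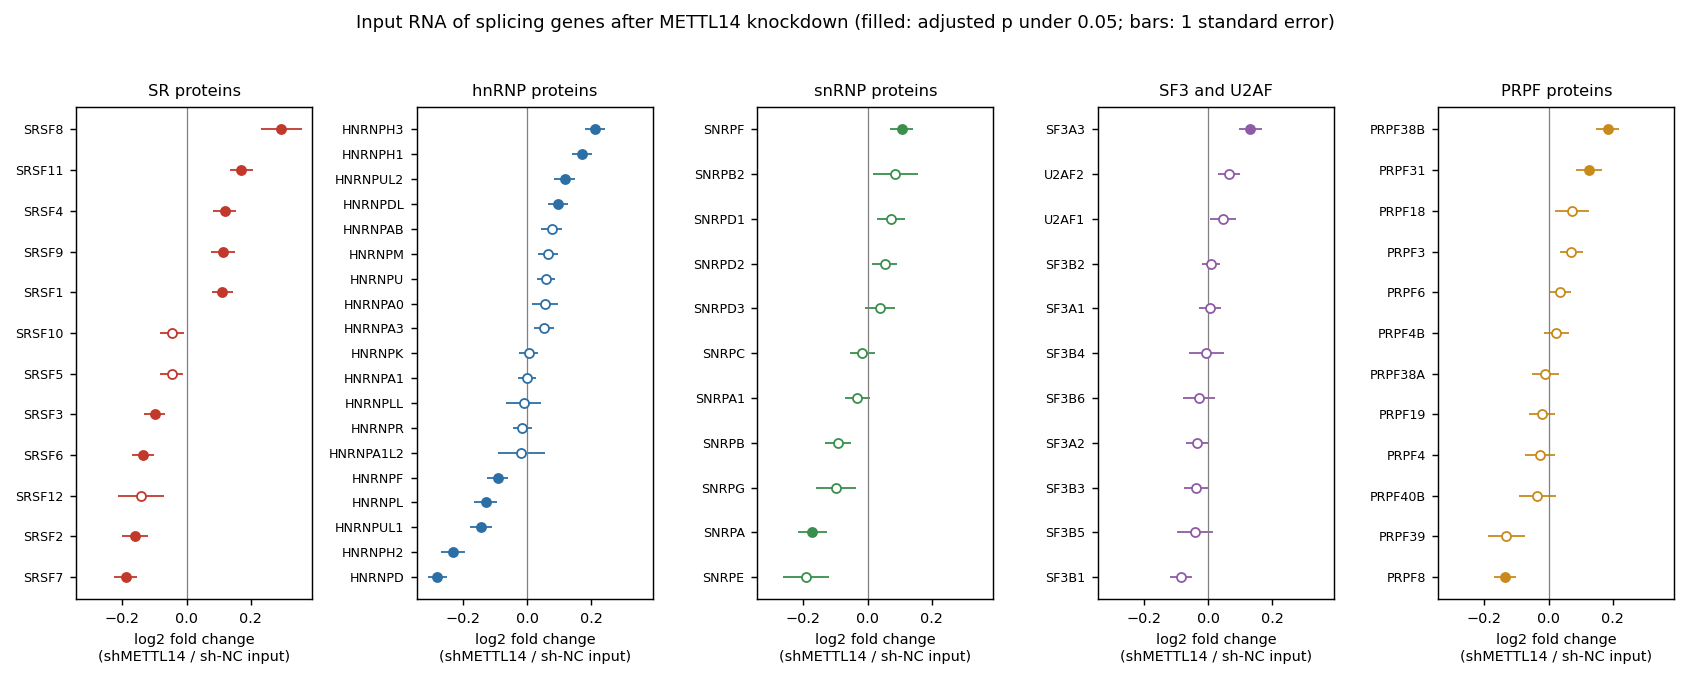
Each point is the log2 fold change of input RNA, shMETTL14 over sh-NC, of 1 of 65 splicing genes with at least 1000 counts, in 5 panels by role, with a bar of 1 standard error. Filled points passed the adjusted p threshold of 0.05, and they lie on both sides of 0 in every panel but that of SF3 and U2AF, where SF3A3 alone is filled.

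SR proteins were split, with 5 rises and 4 falls among 12. SRSF8, a retrotransposed copy of SRSF2, stood at 27.8 and 27.5 CPM in the sh-NC inputs, against 34.5 and 33.1 CPM in the shMETTL14 inputs. Both knockdown cultures were above both controls, and the log2 fold change was 0.30 ± 0.063 (SE, edgeR adjusted p = 0.000978). Its parent SRSF2, an SR protein that binds exons, went the other way, from 118.4 and 117.7 CPM to 107.4 and 102.9 CPM, again without overlap (log2 -0.16 ± 0.041, edgeR adjusted p = 0.00507). SRSF7 fell from 189.2 and 192.6 CPM to 166.3 and 166.7 CPM (log2 -0.19 ± 0.036, edgeR adjusted p = 0.000309). Its closest relative SRSF3, which like SRSF7 links splicing to mRNA export, fell less, by 0.099 on the log2 scale. SRSF6 fell by 0.14. SRSF11 rose from 297.9 and 287.6 CPM to 336.5 and 319.5 CPM (log2 0.17 ± 0.036, edgeR adjusted p = 0.000797). SRSF4, SRSF9 and SRSF1 rose by 0.12, 0.11 and 0.11. SRSF5, SRSF10 and SRSF12 did not pass the test, with log2 values of -0.047, -0.045 and -0.14.

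Among the hnRNP proteins, 4 rose and 5 fell of 22 tested. HNRNPD, also known as AUF1, which binds AU-rich elements and is known for speeding mRNA decay, had the largest fall. Its input level was 804.2 and 778.3 CPM in sh-NC and 641.7 and 655.7 CPM in shMETTL14, a log2 fold change of -0.28 ± 0.031 (edgeR adjusted p = 1.82e-07), and no other splicing gene had a smaller adjusted p. Its paralog and neighbour on chromosome 4, HNRNPDL, rose instead, from 447.1 and 445.2 CPM to 472.4 and 476.4 CPM (log2 0.095 ± 0.031, edgeR adjusted p = 0.0272). Among the splicing genes that passed, this was the smallest rise on the log2 scale. HNRNPDL did not pass when any 1 culture was left out, at log2 values of 0.085 to 0.101. The HNRNPH and HNRNPF genes, whose proteins bind G-rich runs, also split. HNRNPH3 rose from 376.1 and 379.7 CPM to 435.5 and 436.5 CPM (log2 0.21 ± 0.032, edgeR adjusted p = 1.69e-05), and HNRNPH1 rose from 609.9 and 621.0 CPM to 677.1 and 701.8 CPM (log2 0.17 ± 0.031, edgeR adjusted p = 0.000192). HNRNPH2 fell from 156.6 and 158.8 CPM to 133.7 and 133.9 CPM (log2 -0.23 ± 0.038, edgeR adjusted p = 5.36e-05), and HNRNPF fell by 0.092. For these 4 genes and for HNRNPD and HNRNPDL the arms did not overlap.

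HNRNPUL1 and HNRNPUL2, relatives of the scaffold protein HNRNPU, moved in opposite directions, with log2 values of -0.14 and 0.12. HNRNPL, which binds CA repeats, fell by 0.13, and its paralog HNRNPLL did not pass the test at a log2 value of -0.011. The most abundant of all, HNRNPA1, read 1919 and 1904 CPM in sh-NC and 1894 and 1912 CPM in shMETTL14, so its arms overlapped. Its log2 fold change was -0.0001 ± 0.027. HNRNPK, HNRNPR, HNRNPM and HNRNPU did not pass the test either.

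The core spliceosome proteins came next. Among the snRNP proteins, SNRPA, the U1 protein A, fell from 80.96 and 84.14 CPM to 72.5 and 73.3 CPM (log2 -0.17 ± 0.045, edgeR adjusted p = 0.00574), SNRPF, a protein of the Sm ring, rose by 0.11, and 9 of 11 did not pass. Of the SF3 and U2AF genes only SF3A3 passed, at 260.1 and 244.5 CPM in sh-NC and 272.7 and 277.8 CPM in shMETTL14 (log2 0.13 ± 0.036, edgeR adjusted p = 0.00842). SF3B1, which holds the branch point and is often mutated in blood cancers, had a log2 value of -0.085 ± 0.034 and an adjusted p of 0.0752 by edgeR. Of the PRPF genes 3 rose and 1 fell of 13. PRPF38B rose from 231.3 and 218.5 CPM to 259.7 and 249.0 CPM (log2 0.18 ± 0.037, edgeR adjusted p = 0.000583), and PRPF31, a tri-snRNP protein whose mutation causes retinitis pigmentosa, rose by 0.13. PRPF8, the scaffold at the centre of the spliceosome, fell from 345.6 and 331.6 CPM to 309.5 and 303.6 CPM (log2 -0.14 ± 0.034, edgeR adjusted p = 0.0040).

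**Figure D2:**
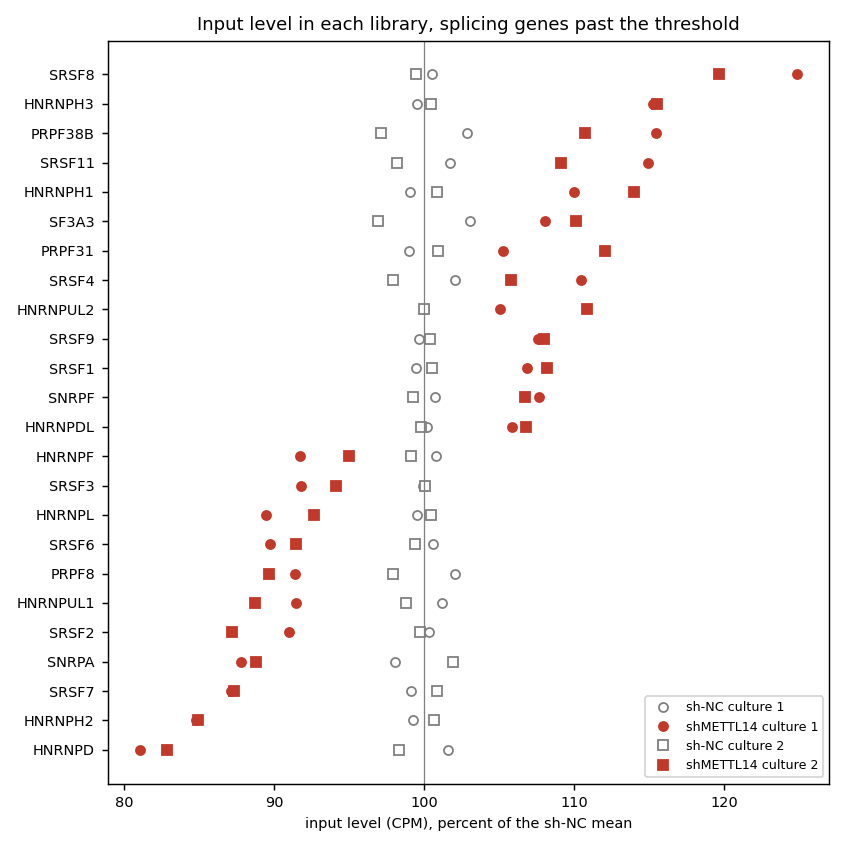
The input level (CPM) in each of the 4 input libraries, as a percent of the gene's sh-NC mean, for 24 of the 25 splicing genes that passed the input test, ordered by fold change. Open grey symbols are sh-NC and filled red symbols shMETTL14, with circles for culture 1 and squares for culture 2, and for each gene the red pair lies on 1 side of the grey pair.

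Splicing genes outside the name rule were counted from lists drawn up with earlier results of these data known. In the input comparison, 14 of 51 further spliceosome genes rose and 5 fell (27.5% and 9.8%). Of 59 further splicing regulators tested 16 rose and 7 fell (27.1% and 11.9%). Over all genes tested the shares were 11.7% and 12.3%, so the falls were not above that share. The medians of the 2 lists were 0.043 and 0.0055 on the log2 scale. Some of these regulators moved more than any of the 25 genes above, and 4 are named here after their values were seen. SRPK1, a kinase that phosphorylates SR proteins, fell from 147.2 and 139.0 CPM to 72.7 and 76.6 CPM (log2 -0.93 ± 0.044, edgeR adjusted p = 1.05e-13). ELAVL3, a neuronal RNA-binding protein, rose from 299.1 and 301.6 CPM to 500.7 and 492.6 CPM (log2 0.73 ± 0.032, edgeR adjusted p = 3.29e-14). SRRM4, a neuronal activator of microexons, rose from 15.6 and 16.6 CPM to 26.1 and 25.1 CPM, and MBNL2 fell from 78.8 and 76.7 CPM to 56.0 and 58.2 CPM. The arms did not overlap for any of the 4.

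The next question was how strongly the m6A antibody recovered the RNA of each splicing gene. IP over input is the ratio of a culture's IP CPM to its input CPM, so that a ratio above 1 means a larger share of the IP than of the input, relative to the other genes of the library. In sh-NC, 35 of 69 genes were higher in IP and 22 lower (edgeR, adjusted p under 0.05), beside 29.1% higher and 29.8% lower of all 22953 genes tested. In shMETTL14, 35 were higher and 18 lower, beside 28.9% and 29.1%. These shares, too, were not compared at like expression levels. The medians of the log2 ratio were 0.14 and 0.098, against -0.014 and -0.0083 over all genes. The split depends on the scaling. With library size alone the medians of all genes moved to -0.14 and -0.13, those of the splicing genes to 0.0069 and -0.023, and the calls to 26 higher against 28 lower for sh-NC, and 25 against 29 for shMETTL14. A scaling factor moves all genes of a library by about the same log2 amount. The distance between splicing genes and all genes was therefore bound to stay about the same, which is no check of it. Between the arms, 31 genes were higher in both, 17 were lower in both and 0 were called in opposite directions. Of the 66 genes with at least 1000 counts, 36 had a ratio above 1 in all 4 cultures, 21 a ratio below 1 in all 4, and 9 were mixed. The same counts were not made over all genes, so this agreement cannot be called particular to the splicing genes. Of all 22953 genes tested, 1 passed the test of a change between the arms.

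**Figure D3:**
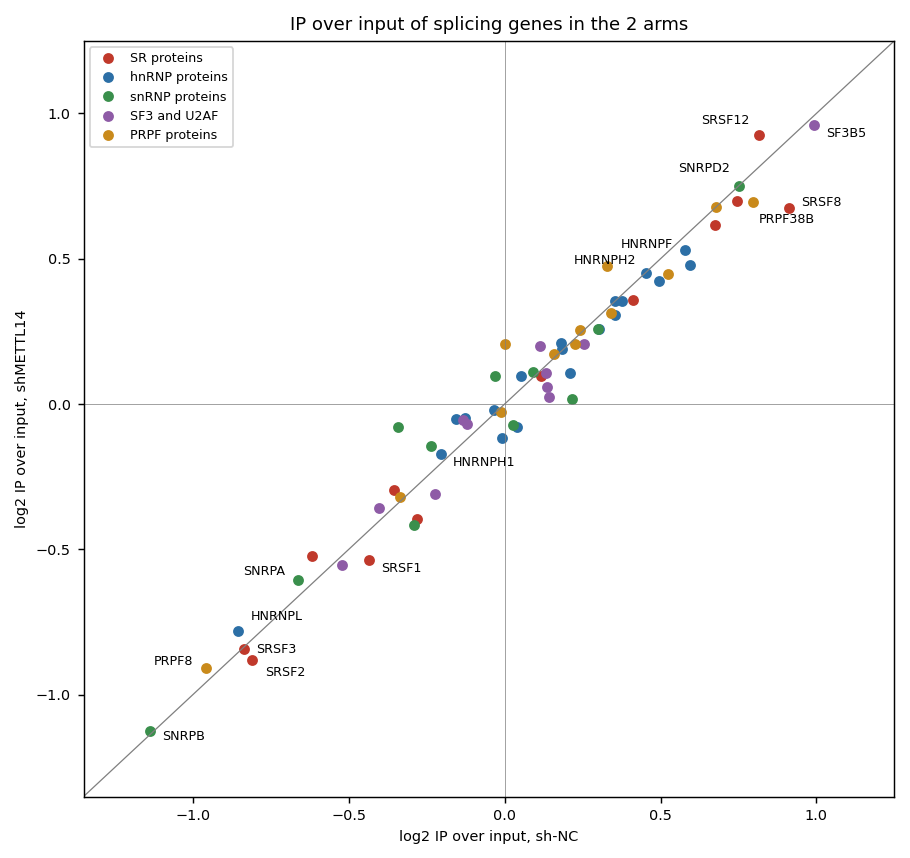
The log2 IP over input of 65 splicing genes with at least 1000 counts, in sh-NC (x axis) and in shMETTL14 (y axis), coloured by role, with the line of equal values. Of these genes SNRPB lies lowest and SF3B5 highest in both arms.

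The 12 SR protein genes fell into 2 sets of 6 that were the same in both arms. SRSF4, SRSF5, SRSF8, SRSF10, SRSF11 and SRSF12 were higher in IP, and SRSF1, SRSF2, SRSF3, SRSF6, SRSF7 and SRSF9 were lower. The place of SRSF5 depended on the setting. With library size alone it was not called in either arm and its sign turned, to -0.013 and -0.025, and its call in shMETTL14 was also lost with the culture as a replicate block (edgeR adjusted p = 0.0662), with at least 10 counts in each library and among genes with under 10% shared exonic bases. It was lost as well without sh-NC culture 2 in sh-NC, and without either shMETTL14 culture in shMETTL14. The copy and its parent again stood apart. SRSF8 had ratios of 1.89 and 1.87 in sh-NC against 1.54 and 1.65 in shMETTL14, whereas SRSF2 had 0.572 and 0.569 in sh-NC against 0.545 and 0.541 in shMETTL14. Every culture was above 1 for SRSF8 and below 1 for SRSF2, with log2 values in sh-NC of 0.91 and -0.81 (edgeR adjusted p = 3.70e-19 and 2.99e-21). SRSF2 shares exon sequence with MFSD11 on the other strand. SRSF3 was similar to SRSF2, at 0.562 and 0.559 in sh-NC against 0.567 and 0.548 in shMETTL14. SRSF12, an SR protein at a low level, had ratios of 1.63 and 1.91 in sh-NC against 2.02 and 1.79 in shMETTL14, and SRSF4 had 1.53 and 1.83 in sh-NC against 1.58 and 1.67 in shMETTL14.

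Among the hnRNP genes, of 22 tested, sh-NC had 12 higher and 4 lower, against 12 higher and 3 lower for shMETTL14. HNRNPL was the lowest of them in sh-NC, with ratios of 0.564 and 0.541 in sh-NC against 0.610 and 0.556 in shMETTL14 (log2 in sh-NC -0.86 ± 0.041, edgeR adjusted p = 6.82e-24). Its paralog HNRNPLL lay at 0.884 and 0.914 in sh-NC against 1.01 and 0.930 in shMETTL14. In the HNRNPH and HNRNPF family, HNRNPF was between 1.43 and 1.52 and HNRNPH2 between 1.35 and 1.39 in the 4 cultures, while HNRNPH1 was between 0.864 and 0.909 and HNRNPH3 between 0.939 and 1.06. HNRNPR, a relative of SYNCRIP, was at 1.50 and 1.53 in sh-NC and at 1.42 and 1.37 in shMETTL14. HNRNPD was at 1.19 and 1.28 in sh-NC and at 1.21 and 1.18 in shMETTL14. HNRNPA1 was near 1, from 0.928 to 1.03. The HNRNPCL1 and HNRNPCL4 ratios in sh-NC were also among the highest, with log2 values of 0.86 and 0.84, but rest on input levels of 0.585 and 0.111 CPM, and of these HNRNPCL1 alone passed (edgeR adjusted p = 0.0461), a call lost with the replicate block, with DESeq2 and with library size alone. In shMETTL14 they were -0.43 and -0.87 and neither passed.

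SNRPB had the lowest IP over input of the 69 genes in both arms, with 0.470 and 0.438 in sh-NC against 0.449 and 0.469 in shMETTL14 (log2 in sh-NC -1.14 ± 0.046, edgeR adjusted p = 4.58e-27). SNRPA followed among the snRNP genes at 0.659 and 0.603 in sh-NC against 0.675 and 0.640 in shMETTL14. SNRPD2, another Sm ring protein, lay on the other side at 1.64 and 1.73 in sh-NC against 1.71 and 1.66 in shMETTL14, so genes of the same ring spanned the range. The highest of the 69 in sh-NC was SF3B5, the smallest SF3B subunit, at 2.11 and 1.87 in sh-NC against 2.09 and 1.81 in shMETTL14 (log2 in sh-NC 0.99 ± 0.053, edgeR adjusted p = 3.43e-22). Within the same complex SF3B4 and SF3B3 were lower in IP, with log2 values in sh-NC of -0.52 and -0.40. SF3B1 was lower in IP in sh-NC at a log2 value of -0.13, and did not pass in shMETTL14 at -0.056.

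**Figure D4:**
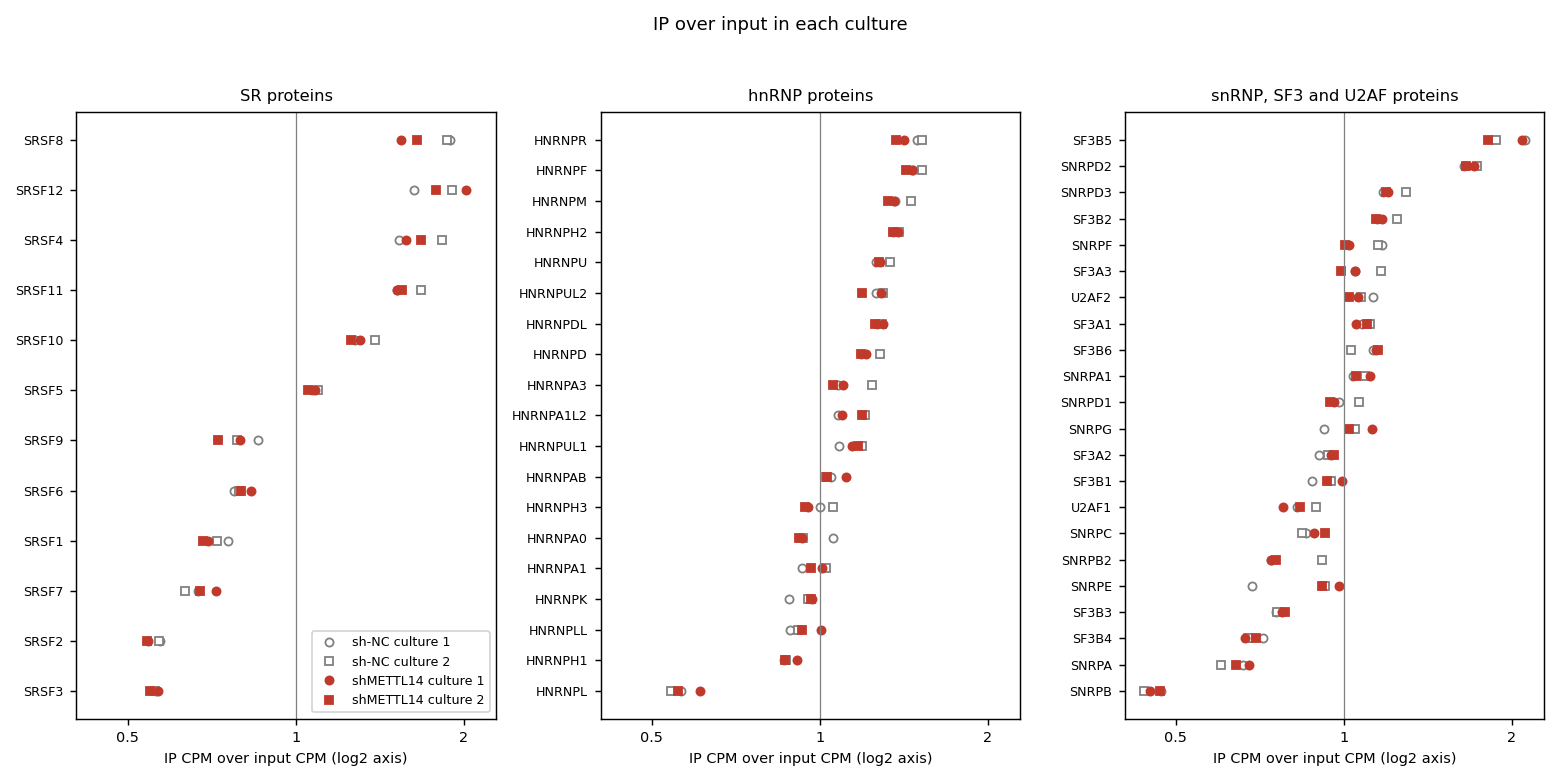
IP CPM over input CPM on a log2 axis in each of the 4 cultures, for SR, hnRNP, and snRNP with SF3 and U2AF genes of at least 1000 counts, ordered by the sh-NC value. Open grey symbols are sh-NC and filled red symbols shMETTL14, circles culture 1 and squares culture 2. The order runs from SNRPB, near 0.45, to SF3B5, near 2, and the arms lie close together beside this range.

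Of the 13 PRPF genes, sh-NC had 9 higher and 2 lower, against 10 higher and 2 lower for shMETTL14. PRPF8 was at 0.502 and 0.528 in sh-NC and at 0.531 and 0.536 in shMETTL14 (log2 in sh-NC -0.96 ± 0.038, edgeR adjusted p = 3.99e-27), and PRPF19, the ubiquitin ligase of the spliceosome, at 0.820 and 0.762 in sh-NC. PRPF38B was at 1.58 and 1.90 in sh-NC and at 1.61 and 1.63 in shMETTL14, and its paralog PRPF38A was also above 1 in every culture, from 1.34 to 1.52. PRPF6 was near 1, from 0.948 to 1.04. Over the 66 genes the log2 ratio in sh-NC had a Spearman correlation of 0.20 with the longest exon, 0.14 with the exonic length and 0.025 with the number of exons, and over 13888 genes these were 0.16, 0.056 and -0.10. Genes in a library share its depth and antibody and are not independent replicates. Among the lists outside the name rule, 31 of 51 spliceosome genes were higher in IP and 15 lower in sh-NC (60.8% and 29.4%). Of 59 regulators 27 were higher and 19 lower (45.8% and 32.2%). Over all genes tested these shares were 29.1% and 29.8%.

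The last comparison asked whether IP over input differed between the arms. Of the 69 genes 0 rose and 0 fell (edgeR interaction test, adjusted p under 0.05), beside 0% and 0.00436% of all genes tested, and DESeq2 also called 0. At an unadjusted p under 0.05, edgeR gave 2 higher and 6 lower genes, beside 3.03% and 3.31% of all genes. The median log2 change was -0.020, against -0.0014 over all genes. In simulated counts, 20.5% of log2 changes of 0.25, 83.5% of 0.5 and 100% of 1 were recovered in this comparison, so most log2 changes of 0.25 were not detectable with 2 cultures an arm. Over the 66 genes with at least 1000 counts the largest absolute log2 change was 0.26.

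The genes at the ends of the order were these. SNRPE, a Sm ring protein, had ratios of 0.684 and 0.925 in sh-NC against 0.980 and 0.915 in shMETTL14, which overlap (log2 change 0.26 ± 0.10, edgeR adjusted p = 0.679). PRPF39, a U1-associated protein, had 0.971 and 1.03 in sh-NC against 1.14 and 1.17 in shMETTL14, without overlap (log2 change 0.20 ± 0.083, edgeR adjusted p = 0.70). PRPF18 and SNRPG had log2 changes of 0.14 and 0.13. At the other end SRSF8, with the ratios given above, had a log2 change of -0.24 ± 0.082 (edgeR adjusted p = 0.604) and arms that did not overlap. SNRPF had ratios of 1.17 and 1.15 in sh-NC against 1.02 and 1.00 in shMETTL14, also without overlap, and the smallest unadjusted p of the 66 genes, 0.000773 (log2 change -0.20 ± 0.055, edgeR adjusted p = 0.485). SNRPF was named here after its values were seen. HNRNPCL4, HNRNPCL1 and HNRNPCL2 had lower values still, -1.70 ± 1.06, -1.29 ± 0.52 and -0.52 ± 0.66, at under 2 CPM in every input library. The changes also depended on the cultures. Without sh-NC culture 1, which leaves 1 sh-NC culture, PRPF38B, HNRNPA3 and SF3A3 had log2 changes of -0.25, -0.22 and -0.21. With all cultures these were -0.099, -0.10 and -0.12. The median in that smaller fit was -0.061 over the splicing genes and -0.019 over all genes.

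Some values carry a further limit from the gene models. Of the 70 genes, 13 share over 10% of their exonic bases with another gene, and 37 share none. HNRNPH2 and HNRNPUL2 lie within read-through genes of the table, RPL36A-HNRNPH2 and HNRNPUL2-BSCL2. HNRNPU overlaps COX20, PRPF18, SRSF1 and SNRPB overlap transcripts with clone-based names, PRPF31 overlaps TFPT, PRPF39 overlaps FKBP3, PRPF40B overlaps FMNL3, SF3A2 overlaps PLEKHJ1, SNRPD3 overlaps GUCD1 and SRSF9 overlaps GATC. The strand setting of the counting is not given in the sources used here, so reads of these genes and of partners on the opposite strand cannot be told apart. The read-through genes, and a partner each of PRPF18, SRSF1 and SNRPB, lie on the same strand. So does GGT1, which SNRPD3 also overlaps. There no strand setting would tell shared reads apart. Such a partner's counts were 452% of the gene's own for HNRNPH2, 102% for HNRNPUL2, 72.7% for PRPF18 and 53.4% for SNRPB. For SRSF1 and SNRPD3 they were 36.6% and 2.87%. How many of these counts fell on shared bases is not known. Numbered pseudogene rows held counts above 10% of those of their parent for HNRNPA1 (17.1%), SNRPE (13%) and SNRPG (77.7%), and the values of these 3 genes are uncertain, as reads can be split between near-identical copies.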

How the data were processed

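The authors deposited raw counts of reads per gene for 8 libraries, and columns were matched to samples by title. The submitters' processing notes name Trimmomatic 0.36 and the build GRCh38. The tools for alignment and counting, the strand setting and the handling of the unique molecular identifiers that the labels mention are not given in the sources used here.

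Tests were run with edgeR 4.0.16 in R 4.3.3 (filterByExpr, TMM factors, glmQLFit and glmQLFTest), with Benjamini-Hochberg adjustment over all genes tested and a threshold of 0.05. The input comparison used the 4 input libraries. IP against input and its change between the arms came from 1 model of 8 libraries with 4 group means. Standard errors are the size of the log2 fold change over the root of F. CPM used the TMM factors of the 8 libraries. An exact two-sided permutation test of 2 against 2 samples has a smallest p of 0.333, so none was used.

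Replicates differed by more than sampling noise (chi-square per gene of 2.43 to 4.00). IP and input of a culture are paired by the protocol, since they come from the same RNA. How far each lay from its group mean correlated by 0.004 for sh-NC and by 5.7e-05 for shMETTL14, and the deviations of same-numbered inputs of the 2 arms by -0.012, over 22953 genes, which are not independent replicates. A common number was therefore not taken to pair cultures between the arms.

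The genes, the lists beside them and the tests were chosen with earlier results of these data known. The rule for named genes took the 12 largest rises and falls past the threshold in the input, the 6 highest and lowest by IP over input in sh-NC, the 4 highest and lowest by its change, the highest and lowest per kb of each role, and genes with over 10% shared exonic bases or pseudogene rows above 10% of their counts. Others, such as paralogs of these, were chosen for naming with their values in view. The fits were tested on simulated counts with 200 changed genes, where 66% of log2 changes of 0.25, 98% of 0.5 and 100% of 1 were recovered in the input comparison. As alternatives, scaling was by RLE factors or by library size alone, the filter was dropped (beyond 1 read) or raised to 10 counts in each library, genes with 10% or more shared exonic bases were left out, DESeq2 1.42.0 replaced edgeR, calls needed a log2 fold change of 0.5 or more in size, a replicate block was added, the IP libraries were compared alone, and each culture was left out in turn. 1 gene that the rule names is not reported here and is left out of the figures, though it counts in the totals. Figures were drawn with matplotlib 3.10.9.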

Additional observations from a re-analysis of the deposited data

How the results depend on the processing

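The fall of METTL14 held in each alternative run, as did the direction of the 25 input calls. Of these, 19 were tested among genes with under 10% shared exonic bases. The arms of the 25 did not overlap in the libraries that picked them, so their direction could hardly turn. Against 14 rises and 11 falls in the input, no filter beyond 1 read gave 5 and 3, and calls of 0.5 or more in size on the log2 scale numbered 0 and 0. Leaving out 1 culture gave 2 to 10 rises and 2 to 14 falls, with the lowest counts without shMETTL14 culture 2. DESeq2 kept 22 of the 25. For IP against input, that size limit left 13 higher and 8 lower genes for sh-NC, and 10 higher and 9 lower for shMETTL14, and library size alone gave 29 lower genes in shMETTL14. For the change of IP over input, leaving out 1 culture gave medians of -0.061 to 0.014 over the splicing genes. Over all genes these medians were -0.019 to 0.0017. The IP libraries alone, a comparison that does not divide by the input, gave 4 higher and 7 lower genes and turned SRSF8 to 0.051. The share of all genes called in that run was not counted. HNRNPCL2 ran from -1.76 without shMETTL14 culture 1 to 0.20 without shMETTL14 culture 2. The causes of these differences were not tested, other than that leaving out a culture leaves 1 sample in an arm, which is then assumed to vary like the others. With the culture number as a replicate block, 14 genes rose and 12 fell in the input, 34 were higher and 22 lower in IP in sh-NC and 33 and 18 in shMETTL14, and 0 changed between the arms. With 2 cultures an arm, few samples set the spread, and the share due to depth was not tested.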
